A study of Homo sapiens with 8 samples.

Results

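Genes for translation initiation factors were followed in an Ago2-RIP-Chip experiment, in which RNA bound to the Argonaute protein Ago2 is pulled down with an antibody and hybridized on arrays next to total RNA of the same cells. The members were all probes whose RefSeq record in the array files belonged to a gene with a symbol beginning EIF1 to EIF6, leaving out the Argonaute (EIF2C) and eIF2 kinase (EIF2AK) genes. This rule found 83 probes of 47 genes, among 41000 probes on the array, 23958 of which could be assigned to 16557 genes in this way. Symbols alone decided, so the set holds EIF1AD, EIF4EBP1 and EIF4EBP2, which are named after the factors they resemble or bind, and 1 Y-linked gene whose levels are not given.

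The cells were ST486, an established Burkitt lymphoma line with little miR-155 of its own, grown in RPMI-1640 with fetal calf serum and antibiotics. They carried the retroviral vector MXW-PGK-IRES-GFP, either empty (EV-ST486, here EV cells) or with miR-155 (miR-155-ST486, here miR-155 cells), and were kept as GFP-positive populations, so that both groups shared the vector and its GFP. From each population a total (T) fraction and an Ago2-IP fraction were taken, which gives 4 RNA samples and 1 sample per condition. Each RNA was labelled once with Cy3 and once with Cy5, and every array carried IP and T of one population, in one dye orientation or the other, so that 4 arrays give 8 channels. The 2 labellings of an RNA are technical repeats, so no test was possible and no p-value is given: the spread printed is that between the 2 orientations, called total in Cy3 and IP in Cy3 and always given in that order. All arrays of one vector lay on one of the 2 slides and 0 slides held both vectors, so that slide and vector cannot be told apart. Nothing in the labels says how many infections or clones the populations came from.

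Translation of most mRNAs begins when eIF4F binds the cap: eIF4E holds the cap, the scaffold eIF4G joins it to the helicase eIF4A, and eIF4B and eIF4H help the helicase to unwind the leader. The large eIF3 complex, eIF1, eIF1A and eIF5 sit on the small ribosomal subunit, to which eIF2 brings the initiator tRNA with GTP; eIF2B recharges eIF2, and eIF5B joins the subunits. The eIF4E-binding proteins compete with eIF4G for eIF4E. Argonaute proteins carry miRNAs to sites that pair with the miRNA seed, so that an mRNA with such sites can be recovered with Ago2, and an IP/T ratio above 1 means relative enrichment in the Ago2-IP fraction.

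The agent that differed between the vectors was miR-155. Its guide strand is shown because the miR-155/EV comparison turns on it, with the seed (bases 2 to 8) in capitals; the sequence and its place, chr21:25573983-25574006 on the plus strand of GRCh38.p14, are those of RefSeq.
hsa-miR-155-5p: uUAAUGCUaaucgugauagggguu
Transcript sequences of the members were not analysed here, so no member is called a carrier or a non-carrier of a miR-155 site.

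Of the 83 probes, 72 of 45 genes were kept, which means detected in 4 or more of the 8 channels with the labellings of an RNA at most 2-fold apart; 15529 probes were kept in all. Of the 72 kept members, a number that the detection filter itself bears on, 70 were detected in all 8 channels. On the whole array, with no filter, 14094 to 22161 of the 41000 probes were detected in a channel. The 11 probes not kept fell under 4 channels in 7 cases and had labellings over 2-fold apart in 4. EIF4G2, a relative of eIF4G without the eIF4E-binding part, was lost in this way: its single probe was detected in all 8 channels, but gave 26464 and 11174 in the T fraction and 18025 and 22394 in the IP fraction of EV cells, and 25013 and 24872 in the T fraction and 22443 and 22675 in the IP fraction of miR-155 cells, the T labellings of EV cells lying over 2-fold apart. EIF4E3 was lost too, 1 of its probes being detected in 0 channels and the other in 1. Of 7 B cell markers on the array, 6 were detected in all 4 total channels (PAX5 in none), as against 0 of 4 T cell and 0 of 4 myeloid markers, CD14 being detected in 3 channels and the other 3 in none.

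The initiation factor probes held both members with more signal in the IP than in the T fraction, led by EIF4EBP2 and EIF4A2, and members with less, led by EIF4H and EIF4B. The low end was less stable: with normexp background the lowest EIF4H probe was not kept. The lowest EIF4B probe then had ratios of 0.829 and 0.905 in EV cells. Their median log2 IP/T ratio was -0.28 in EV cells (-0.34 and -0.23 in the orientations) and -0.21 in miR-155 cells (-0.21 and -0.19), beside -0.15 and -0.18 over all kept probes. An IP/T ratio of at least 2 was found for 8 of the 72 member probes in EV cells, or 11.1%. The share of all kept probes was 12.1%. In miR-155 cells the same 8 probes passed, beside 12.2% of all. With normexp background the share of all probes was lower, while that of the members changed little. The probes kept were not the same, however. In all, 18291 were kept under quantile normalization and 18044 under loess and Aquantile, as against 15529, while fewer members were kept. The shares are thus of different sets of probes. Under quantile normalization 7 of 66 kept members passed in EV cells (10.6%, all probes 6.04%). In miR-155 cells 8 of 66 passed (12.1%, all probes 6.25%). Under loess and Aquantile normalization it was 7 of 64 in EV cells (10.9%, all probes 4.93%) and 8 of 64 in miR-155 cells (all probes 6.98%). At the other end, 8 member probes (11.1%) had a ratio of at most 0.5 in each vector, beside 10.0% of all probes in EV cells and 9.83% in miR-155 cells. With the orientation total in Cy3 alone, the count in EV cells was 16 (22.2%, all probes 14.7%), and with IP in Cy3 alone it was 8 (11.1%, all probes 9.53%). With both orientations averaged, the ratios of the kept members in EV cells ran from 0.262 for EIF4H to 6.38 for EIF4EBP2.

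**Figure D1:**
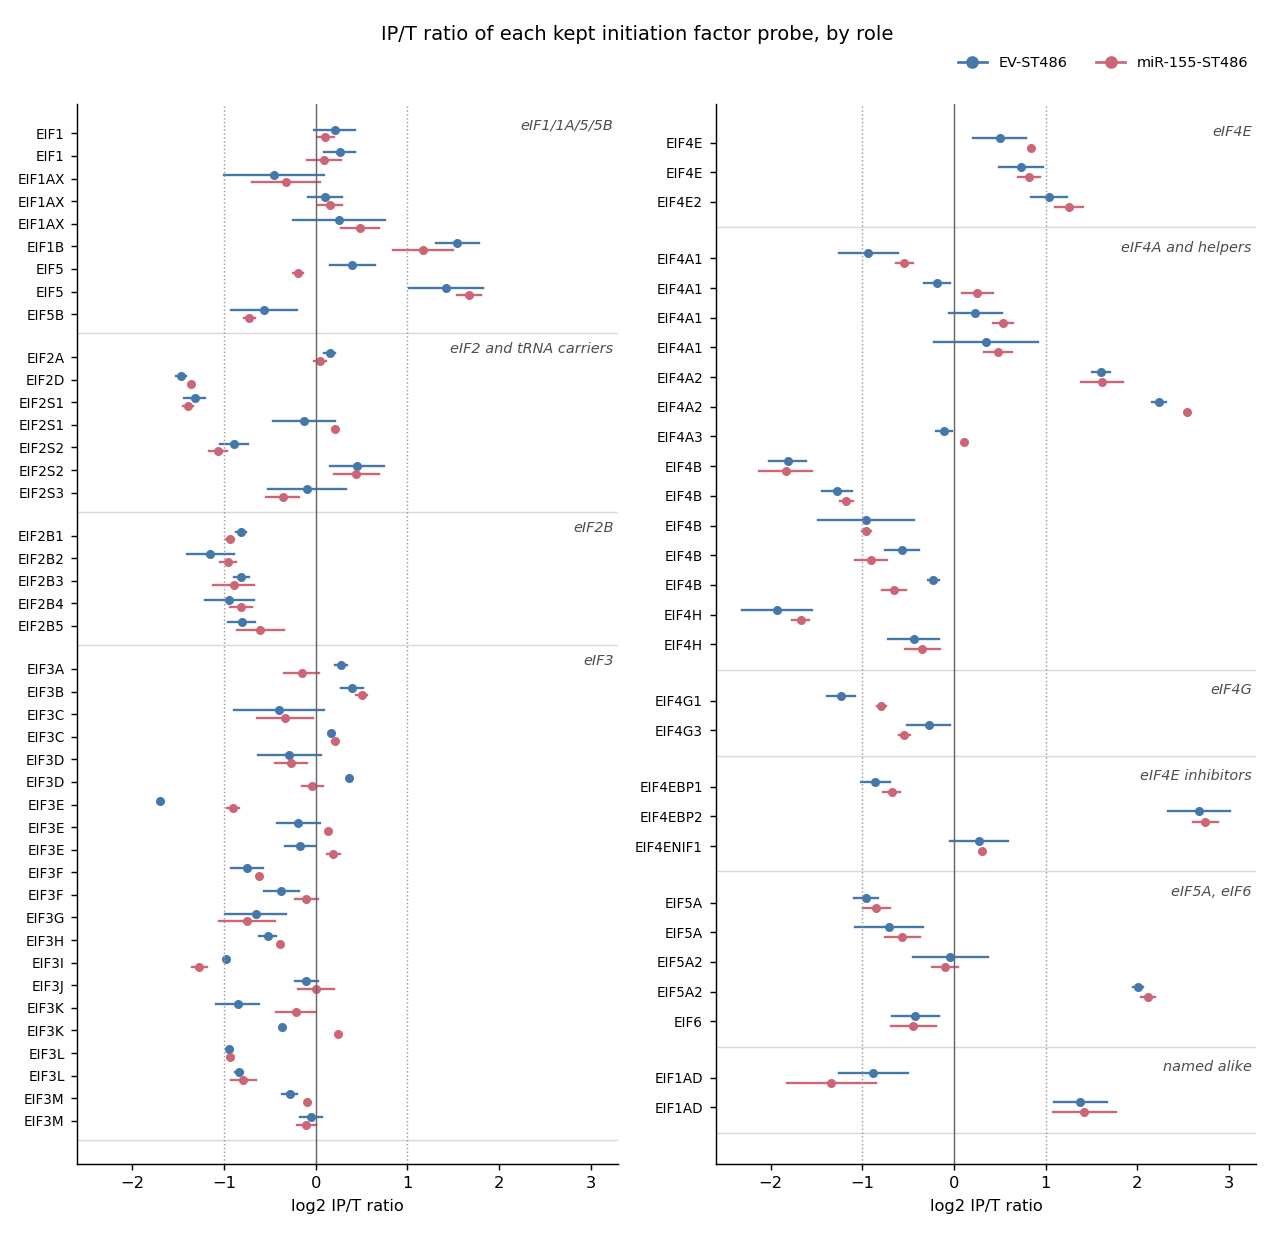
Log2 IP/T ratio (x axis) of 71 kept initiation factor probes, 1 row per probe, grouped by role, in EV cells (blue) and miR-155 cells (red). Points are means of the 2 dye orientations and bars join the orientations; dotted lines mark ratios of 0.5 and 2. The 5 eIF2B rows lie left of 0 in both vectors, while EIF4EBP2, EIF4A2, 1 EIF5A2 row and 1 EIF5 row lie right of the upper line.

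Ratios of at least 2 were spread over 7 genes: EIF4EBP2, EIF4A2 with both of its probes, EIF5A2, EIF1B, EIF5, EIF1AD and EIF4E2. Required in both dye orientations, the count was 7 probes in EV cells (9.72%, all probes 9.39%), where EIF4E2 dropped out, and 7 in miR-155 cells (9.72%, all probes 10.4%), where EIF1B dropped out.

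EIF4EBP2 encodes an inhibitor that binds eIF4E and keeps it from eIF4G. Its kept probe gave normalized signals (Cy3 and Cy5) of 15436 and 10244 in the T fraction and 82552 and 77949 in the IP fraction of EV cells, and 12186 and 12007 in the T fraction and 88266 and 74292 in the IP fraction of miR-155 cells. All 4 IP channels lay above all 4 total channels, with no overlap. The IP/T ratio was 6.38 in EV cells (orientations 5.05 and 8.06) and 6.69 in miR-155 cells (orientations 6.10 and 7.35), places 345 and 293 from the top among the 15529 kept probes. A dimmer EIF4EBP2 probe was not kept, because its T labellings in EV cells were 85.1 and 18.5; its IP signals were 339.9 and 359. In the related EIF4EBP1, also an eIF4E inhibitor, the order was the opposite: 10055 and 9055 in the T fraction and 5571 and 4984 in the IP fraction of EV cells, and 9168 and 8304 in the T fraction and 5510.2 and 5379 in the IP fraction of miR-155 cells. Here all 4 IP channels lay below all 4 total channels, and the IP/T ratio was 0.552 and 0.624. EIF4ENIF1, which carries eIF4E into the nucleus and binds it in processing bodies, had log2 ratios of 0.28 and 0.30. In EV cells its orientations lay on both sides of 0, at 0.59 and -0.04, and in miR-155 cells they were 0.29 and 0.32.

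The 2 eIF4A helicase genes also went apart. EIF4A2 probe A_23_P121250 gave 10244 and 10198 in the T fraction and 45625 and 50978 in the IP fraction of EV cells, and 12248 and 13431 in the T fraction and 77321 and 72099.7 in the IP fraction of miR-155 cells. The IP channels were several-fold above the T channels in both vectors, and the IP/T ratio was 4.72 in EV cells (orientations 4.98 and 4.47) and 5.82 in miR-155 cells (orientations 5.89 and 5.76). EIF4A2 probe A_32_P110751 gave 932 and 863 in the T fraction and 2446 and 3034 in the IP fraction of EV cells, and 928 and 761 in the T fraction and 2730.0 and 2429.8 in the IP fraction of miR-155 cells, with IP/T ratios of 3.04 and 3.06. Both probes thus had no overlap between IP and T channels. EIF4A1 encodes the other helicase. EIF4A1 probe A_23_P137103 gave 31798 and 32097 in the T fraction and 46056 and 30566 in the IP fraction of EV cells, and 39804 and 39110.0 in the T fraction and 60959 and 53680.1 in the IP fraction of miR-155 cells. IP and T overlapped in EV cells but not in miR-155 cells, where IP was higher. EIF4A1 probe A_32_P149432 gave 25061 and 16145 in the T fraction and 30406 and 21536 in the IP fraction of EV cells, and 33851 and 29744 in the T fraction and 46208 and 42405 in the IP fraction of miR-155 cells, with the same pattern of overlap. The other 2 EIF4A1 probes were lower in IP/T. Probe A_24_P390793 gave 18769 and 21078 in the T fraction and 20451 and 14950.5 in the IP fraction of EV cells, and 23995 and 22225 in the T fraction and 29798 and 25435 in the IP fraction of miR-155 cells. Probe A_32_P135902 gave 4439.8 and 4071 in the T fraction and 2658 and 1866 in the IP fraction of EV cells, and 4952 and 4546 in the T fraction and 3331 and 3191 in the IP fraction of miR-155 cells, its IP channels lying below its T channels in both vectors. All 4 kept EIF4A1 probes had lower ratios than either EIF4A2 probe, from 0.524 to 1.27 in EV cells and from 0.687 to 1.45 in miR-155 cells. EIF4A3, the helicase of the exon junction complex rather than of initiation, had ratios of 0.926 and 1.08.

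EIF5A2 and EIF5A encode closely related proteins that carry the hypusine residue and act in elongation and termination. EIF5A2 probe A_24_P380022 gave 390.0 and 346 in the T fraction and 1451 and 1513 in the IP fraction of EV cells, and 257 and 247 in the T fraction and 1132 and 1054 in the IP fraction of miR-155 cells. Its IP channels did not overlap with its T channels, and the IP/T ratio was 4.03 in EV cells (orientations 3.88 and 4.19) and 4.34 in miR-155 cells (orientations 4.11 and 4.58). These ratios moved with the processing: with normexp background they were 2.74 and 2.31 under quantile normalization and 2.21 and 2.60 under loess and Aquantile, in EV and miR-155 cells. The second EIF5A2 probe, A_24_P385739, did not share this: its signals were 959.6 and 1215 in the T fraction and 889 and 1244 in the IP fraction of EV cells, and 818 and 962 in the T fraction and 813 and 841 in the IP fraction of miR-155 cells. IP and T overlapped there, and the ratio was 0.974 and 0.933. EIF5A probe A_24_P31235 gave 4667 and 3376 in the T fraction and 2672 and 2214 in the IP fraction of EV cells, and 3709 and 2839.7 in the T fraction and 2190.0 and 2194 in the IP fraction of miR-155 cells. EIF5A probe A_24_P375609 gave 2088 and 1710.1 in the T fraction and 965 and 978 in the IP fraction of EV cells, and 1887 and 1464 in the T fraction and 902 and 948 in the IP fraction of miR-155 cells. IP lay below T without overlap within each vector, so that both EIF5A probes were below 1, with ratios of 0.613 and 0.514 in EV cells and 0.675 and 0.556 in miR-155 cells. EIF6 encodes a factor that keeps the large ribosomal subunit from joining too early. Its probe gave 7619.8 and 6399 in the T fraction and 5697 and 4773 in the IP fraction of EV cells, and 8952 and 6976 in the T fraction and 6103 and 5547 in the IP fraction of miR-155 cells. T was above IP within each vector, and the ratio was 0.747 and 0.736.

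EIF1B resembles EIF1, the factor that guards start codon choice during scanning. The EIF1B probe gave 2247 and 2569 in the T fraction and 6370.2 and 7725 in the IP fraction of EV cells, and 2346 and 3314 in the T fraction and 5964 and 6651 in the IP fraction of miR-155 cells. IP was above T in every pair of channels, and the IP/T ratio was 2.92 in EV cells (orientations 3.44 and 2.48) and 2.26 in miR-155 cells (orientations 2.83 and 1.80). The EIF1 probes, by contrast, were near 1, with ratios of 1.20 and 1.16 in EV cells and of 1.07 for both in miR-155 cells. EIF1 probe A_23_P45945 gave 124165 and 97951 in the T fraction and 131855 and 132390.0 in the IP fraction of EV cells, and 136381 and 118181 in the T fraction and 143376 and 127934 in the IP fraction of miR-155 cells. EIF1 probe A_32_P53049 gave 120426 and 98394 in the T fraction and 132838 and 119238 in the IP fraction of EV cells, and 132838 and 120426 in the T fraction and 137937 and 133971 in the IP fraction of miR-155 cells. IP was above T without overlap in EV cells at the first probe and in miR-155 cells at the second, and overlapped with T otherwise. They were among the brightest of the array, at 97951 to 143376 over all channels, and none was saturated.

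EIF4E2, a cap-binding protein that represses rather than drives translation, gave 19399 and 18413 in the T fraction and 43176 and 34754 in the IP fraction of EV cells, and 19980.5 and 18256 in the T fraction and 48485 and 43015 in the IP fraction of miR-155 cells. The IP channels lay above the T channels throughout, with an IP/T ratio of 2.05 in EV cells (orientations 1.79 and 2.34) and 2.39 in miR-155 cells (orientations 2.15 and 2.66). The kept probes of EIF4E itself were milder. EIF4E probe A_23_P118649 gave 2192 and 2688 in the T fraction and 3112 and 3789 in the IP fraction of EV cells, and 3388 and 3481 in the T fraction and 6196 and 6095 in the IP fraction of miR-155 cells, with IP above T within each vector. The IP/T ratios of the 2 kept EIF4E probes were 1.41 and 1.66 in EV cells and 1.79 and 1.76 in miR-155 cells. EIF4E probe A_23_P118643 was left out because its IP labellings in EV cells differed (10116 and 4891). In miR-155 cells its labellings were 6138 and 5833 in T and 17001 and 17039.8 in IP. There its IP signals exceeded its T signals by a larger factor than those of EIF4E2 did.

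**Figure D2:**
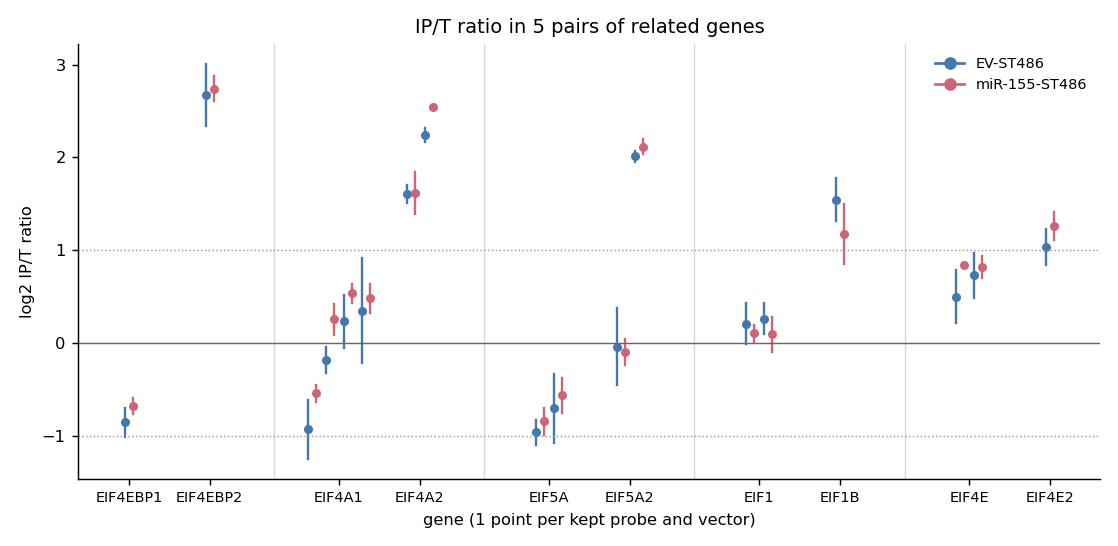
Log2 IP/T ratio (y axis) of 5 pairs of related initiation factor genes (x axis), 1 point per kept probe, EV cells in blue and miR-155 cells in red. Bars join the 2 dye orientations and dotted lines mark ratios of 0.5 and 2; the right-hand gene of each pair has the higher points, and 1 of 2 EIF5A2 probes lies near 0.

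These 5 pairs were put side by side after their values had been seen, and no test was made of them. In each pair every kept probe of EIF4EBP2, EIF4A2, EIF5A2, EIF1B or EIF4E2 had a higher mean ratio than every kept probe of its relative, in both vectors. This does not hold for the EIF4E probe that was not kept, which had a higher ratio than EIF4E2 in miR-155 cells. In EV cells the orientations of EIF4E2 and EIF4E overlapped, as did those of the lower EIF5A2 probe and the higher EIF5A probe.

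EIF5, the activator of the GTPase of eIF2, had 2 kept probes, both above 1 in EV cells and on different sides of 1 in miR-155 cells. EIF5 probe A_24_P415959 gave 5761 and 7615 in the T fraction and 15436 and 20451 in the IP fraction of EV cells, and 6843 and 8149 in the T fraction and 23773 and 23970.5 in the IP fraction of miR-155 cells. IP was above T without overlap, at an IP/T ratio of 2.68 in EV cells (orientations 3.55 and 2.03) and 3.20 in miR-155 cells (orientations 3.50 and 2.92). Probe A_24_P398810 gave 570.4 and 573 in the T fraction and 636 and 894 in the IP fraction of EV cells, and 723 and 808 in the T fraction and 680.1 and 657 in the IP fraction of miR-155 cells, with ratios of 1.32 and 0.875. Another EIF5 probe, A_23_P205265, was detected in all 8 channels but not kept, because its IP labellings in EV cells were 5984 and 2693. Its ratio was 0.586 in EV cells (orientations 0.474 and 0.724) and 0.971 in miR-155 cells (orientations 1.09 and 0.865). EIF5B, the subunit-joining GTPase, was on the low side, with ratios of 0.677 and 0.606. The EIF1AX probes, for eIF1A, were between -0.45 and 0.25 on the log2 scale in EV cells and between -0.32 and 0.48 in miR-155 cells.

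The ratios of at most 0.5 in EV cells belonged to EIF4H, 2 EIF4B probes, EIF3E, EIF2D, EIF2S1, EIF4G1 and EIF2B2. In miR-155 cells they belonged to EIF4H, the same 2 EIF4B probes, EIF2S1, EIF2D, EIF1AD, EIF3I and EIF2S2. In both dye orientations, 7 member probes passed in EV cells (9.72%, all probes 5.07%) and 6 in miR-155 cells (8.33%, all probes 5.90%). The counts depended on the processing, and the members and all probes did not always move alike. With normexp background, 18291 probes were kept in all under quantile normalization and 18044 under loess and Aquantile. With normexp background and quantile normalization, 6 of 66 kept members in EV cells (9.09%, all probes 2.98%) and 1 in miR-155 cells (1.52%, all probes 2.84%) were at or under 0.5. With normexp background, loess and Aquantile normalization it was 0 of 64 (all probes 1.84%) and 1 (1.56%, all probes 1.96%). The probes of EIF4H and EIF3I with such ratios were not kept under either. None of the 32 member IP/T values of at least 2 or at most 0.5 changed its side of 1 under an alternative that kept the probe.

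EIF4H had the lowest ratio of the set, 0.262 in EV cells (orientations 0.202 and 0.341) and 0.314 in miR-155 cells (orientations 0.293 and 0.335), at probe A_24_P720202. Its signals were 2473 and 1852 in the T fraction and 632 and 499 in the IP fraction of EV cells, and 2653 and 2132 in the T fraction and 715 and 778 in the IP fraction of miR-155 cells, so that all T channels were well above all IP channels. The second EIF4H probe was at 0.737 and 0.788. EIF4B had 5 kept probes, all with ratios below 1 in both vectors. The lowest, A_24_P93251, gave 398 and 319 in the T fraction and 104 and 98.6 in the IP fraction of EV cells, and 271 and 213 in the T fraction and 72.9 and 62.1 in the IP fraction of miR-155 cells. It was detected in only 5 of 8 channels. Its log2 ratio in EV cells was -1.81, but -0.27 with normexp and quantile normalization and -0.14 with normexp, loess and Aquantile. In miR-155 cells it was -1.84, and -0.50 and -0.39 in these settings. The normexp settings differ from the main one in the intensities used and in an offset of 50, as well as in the background. EIF4B probe A_23_P60286 was detected throughout, at 1312 and 1089 in the T fraction and 503 and 483 in the IP fraction of EV cells, and 908 and 836 in the T fraction and 389 and 384 in the IP fraction of miR-155 cells. Its T channels lay above its IP channels without overlap, and its IP/T ratio was 0.412 in EV cells (orientations 0.368 and 0.462) and 0.443 in miR-155 cells (orientations 0.422 and 0.465). With normexp background this ratio was 0.539 and 0.564 under quantile normalization and 0.612 and 0.603 under loess and Aquantile, in EV and miR-155 cells. The remaining 3 EIF4B probes ran from 0.514 to 0.856 in EV cells and from 0.516 to 0.635 in miR-155 cells.

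Of the eIF2 genes, EIF2S1 encodes the alpha subunit, on which stress kinases act. EIF2S1 probe A_24_P138556 gave 2354 and 2270.1 in the T fraction and 840.3 and 1023 in the IP fraction of EV cells, and 3443 and 3283 in the T fraction and 1294 and 1265 in the IP fraction of miR-155 cells. T was above IP in every channel, at a ratio of 0.401 in EV cells (orientations 0.435 and 0.370) and 0.381 in miR-155 cells (orientations 0.367 and 0.394). The other EIF2S1 probe gave 275 and 314 in the T fraction and 227 and 317 in the IP fraction of EV cells, and 387 and 390.5 in the T fraction and 459.6 and 439 in the IP fraction of miR-155 cells. Its ratio was 0.913 and 1.15, with overlap of IP and T in EV cells. A like split was seen for EIF2S2, the beta subunit, with 0.540 and 0.477 at one probe and 1.37 and 1.36 at the other. EIF2S3, the gamma subunit, was at 0.938 and 0.778. EIF2D, which can deliver tRNA without eIF2, gave 1451 and 1429.6 in the T fraction and 538 and 503 in the IP fraction of EV cells, and 1231 and 1278 in the T fraction and 496 and 483 in the IP fraction of miR-155 cells. Its T and IP channels were far apart and its labellings close, with a ratio of 0.361 in EV cells (orientations 0.347 and 0.376) and 0.390 in miR-155 cells (orientations 0.393 and 0.388). With normexp background this ratio was 0.465 and 0.502 under quantile normalization and 0.536 and 0.531 under loess and Aquantile, in EV and miR-155 cells.

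All 5 eIF2B subunits had ratios below 1 in both orientations of both vectors. The median log2 ratio was -0.81 in EV cells and -0.89 in miR-155 cells, and single subunits ran from -1.15 to -0.81 and from -0.96 to -0.60. EIF2B2 was the lowest in EV cells, at a ratio of 0.450 (orientations 0.377 and 0.538). EIF2B5, the catalytic subunit, gave 1298 and 1357 in the T fraction and 857 and 670.1 in the IP fraction of EV cells, and 1484 and 1239 in the T fraction and 976 and 816 in the IP fraction of miR-155 cells. Its IP channels lay below its T channels, with ratios of 0.571 and 0.658. Over all kept probes, 6102 of 15529 were below 1 in all 4 of these ratios, and among the initiation factors 33 of 72 were.

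EIF4G1, the main scaffold of eIF4F, gave 2769 and 2618 in the T fraction and 1239.6 and 1062 in the IP fraction of EV cells, and 3255 and 2565 in the T fraction and 1534 and 1815 in the IP fraction of miR-155 cells. T was above IP in both vectors, and the ratio was 0.426 in EV cells (orientations 0.384 and 0.473) and 0.577 in miR-155 cells (orientations 0.557 and 0.598). EIF4G3 was at 0.825 and 0.687.

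All 13 eIF3 subunit genes on the array had a kept probe, 21 probes in all. Their median log2 IP/T ratio was -0.37 in EV cells and -0.15 in miR-155 cells. No eIF3 probe reached a ratio of 2 in either vector, where 12.1% and 12.2% of all kept probes did, and 17 and 15 of the 21 were below 1, as were 9031 and 9219 of the 15529 in all. EIF3B, a core scaffold of the complex, gave 25359 and 29367 in the T fraction and 35521 and 36253 in the IP fraction of EV cells, and 33107 and 33422 in the T fraction and 45348 and 48954 in the IP fraction of miR-155 cells, with ratios of 1.31 and 1.42, the highest of the eIF3 genes. EIF3A, the largest subunit, gave 7556 and 6993 in the T fraction and 8111 and 9551 in the IP fraction of EV cells, and 10009 and 9025 in the T fraction and 9244 and 7899 in the IP fraction of miR-155 cells. IP was above T in EV cells and overlapped with it in miR-155 cells, at ratios of 1.21 and 0.899. EIF3I was the eIF3 gene with a ratio under 0.5 in miR-155 cells, 0.415 (orientations 0.438 and 0.393), beside 0.507 in EV cells. Its signals were 11009.9 and 8681 in the T fraction and 4439.8 and 5542 in the IP fraction of EV cells, and 12205 and 13008 in the T fraction and 5109 and 5350.0 in the IP fraction of miR-155 cells, and T and IP did not overlap.

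**Figure D3:**
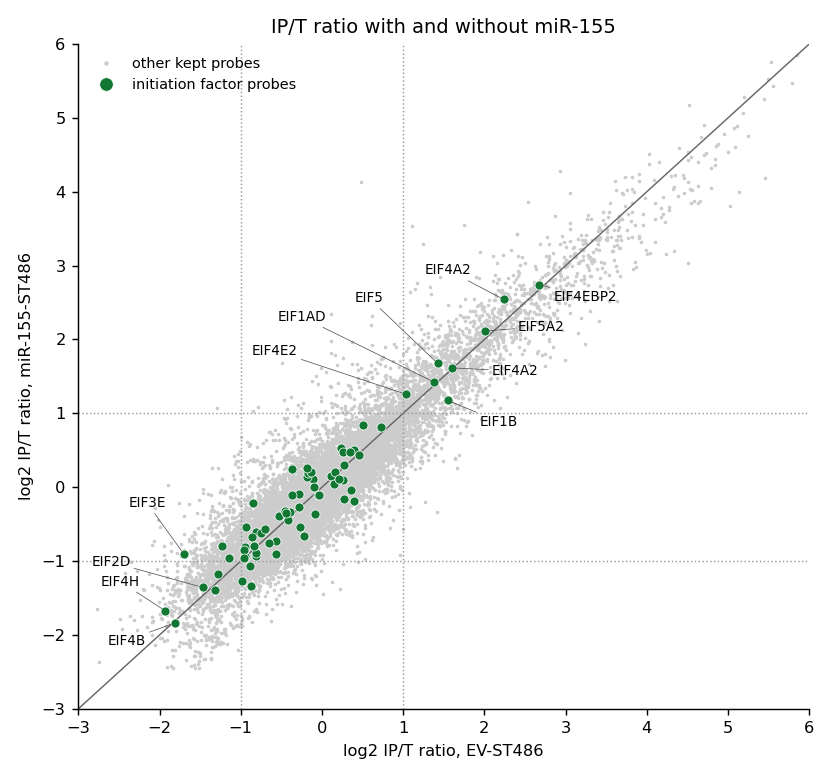
Log2 IP/T ratio in EV cells (x axis) against miR-155 cells (y axis) of the kept probes, with 71 initiation factor probes in green and the others in grey. The solid line marks equal ratios and dotted lines ratios of 0.5 and 2; the 8 initiation factor probes of at least 2 in EV cells are of at least 2 in miR-155 cells too.

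The miR-155/EV ratio, the IP/T ratio in miR-155 cells over that in EV cells, asks which transcripts were recovered more with Ago2 when miR-155 was added. No initiation factor probe reached 2 (all probes 1.15%) and none was at or below 0.5 (all probes 0.477%). The median log2 miR-155/EV ratio of the members was 0.08 (0.04 and 0.06 in the orientations), beside -0.02 over all kept probes. Across the 72 member probes the IP/T ratios of the vectors ran together, with a Pearson correlation of 0.96 (0.93 over all kept probes); the points share probes, slides and dyes, so this describes the arrays and was not tested. Between the orientations the correlation of the member miR-155/EV values was 0.36, with a median absolute difference of 0.20 on the log2 scale, so that differences of this size lie within the spread of the labellings.

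A change of at least 1.5-fold in both orientations was seen upwards for 3 member probes (4.17%, all probes 2.21%) and downwards for 0 (all probes 1.57%). They belong to EIF3K and EIF3E, which encode eIF3 subunits that budding yeast lacks. EIF3K probe A_23_P90264 gave 38522 and 37089.9 in the T fraction and 28263 and 30336 in the IP fraction of EV cells, and 38551 and 39846 in the T fraction and 46577 and 46577 in the IP fraction of miR-155 cells. The T channels were alike in both vectors, while the IP channels of miR-155 cells lay above those of EV cells, and the miR-155/EV ratio was 1.53 (1.53 and 1.53). EIF3K probe A_24_P330971 gave 15819 and 14474 in the T fraction and 9433 and 7453 in the IP fraction of EV cells, and 15120.5 and 14003 in the T fraction and 13936 and 11236 in the IP fraction of miR-155 cells, with the same order of IP channels and a ratio of 1.55 (1.58 and 1.53). With normexp background, loess and Aquantile the first had a log2 value of 0.16 and the second one of 0.72.

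EIF3E probe A_32_P229760 had a miR-155/EV ratio of 1.74 (1.68 and 1.80), from signals of 465 and 693 in the T fraction and 216 and 141 in the IP fraction of EV cells, and 599.9 and 636 in the T fraction and 357 and 306 in the IP fraction of miR-155 cells. Its IP channels were higher in miR-155 than in EV cells without overlap, but this dim probe was detected in 7 of 8 channels, and normexp with loess brought its log2 value from 0.80 to 0.29. The 2 brighter EIF3E probes had smaller ratios, 1.25 (1.06 and 1.47) and 1.28 (1.20 and 1.37). In both vectors the IP/T ratio of the dim probe stayed below 1, at 0.307 (0.631 with normexp, loess and Aquantile) and 0.535, and that of the second EIF3K probe likewise, at 0.554 and 0.860.

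In the T fraction, the median log2 difference of the members, miR-155 minus EV, was 0.17 (0.13 in Cy3 and 0.16 in Cy5), beside 0.02 over all kept probes, and 51 of the 72 probes were higher in miR-155 cells, as were 8090 of 15529 probes in all. In such bulk RNA, a change in the make-up of the cells and one in RNA per cell cannot be told apart. Without quantile normalization the member median was 0.60 and that of all probes 0.44. T signal was at least 1.5-fold higher in both dyes for EIF4E probe A_24_P349560 and EIF5B, 2 of 72 (all probes 1.65%), and lower by that much for 0 (all probes 1.53%). EIF5B gave 174 and 193 in the T fraction and 101 and 151 in the IP fraction of EV cells, and 294 and 315 in the T fraction and 183 and 186 in the IP fraction of miR-155 cells. T was higher in miR-155 cells by 0.73 on the log2 scale (0.76 and 0.71 in the dyes), and IP was higher too. EIF4E probe A_24_P349560 gave 939 and 1005 in the T fraction and 1409 and 1844 in the IP fraction of EV cells, and 1432 and 1637 in the T fraction and 2656 and 2746 in the IP fraction of miR-155 cells, a T difference of 0.66 (0.61 and 0.70). The other kept EIF4E probe differed by 0.50 (0.63 and 0.37). The lowest T differences were those of EIF4B probe A_24_P93251, -0.57, and of EIF5A2 probe A_24_P380022, -0.54.

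**Figure D4:**
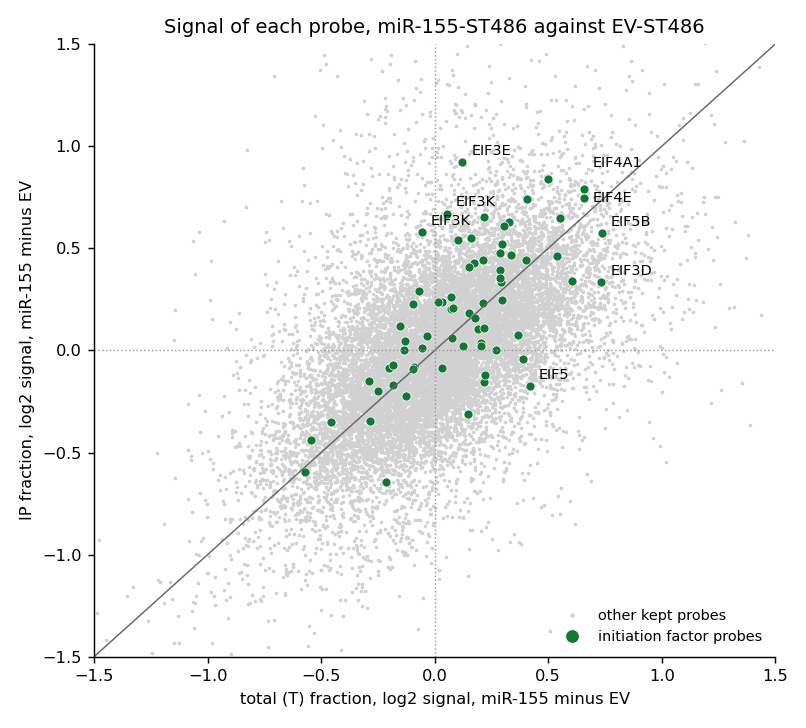
Log2 signal difference, miR-155 minus EV, in the T fraction (x axis) and the IP fraction (y axis), for 71 initiation factor probes (green) and the other kept probes (grey). The solid line marks equal differences, that is a miR-155/EV ratio of 1; the EIF3K probes and 1 EIF3E probe lie above it with little difference in T.

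Probes of 1 gene often disagreed. In 9 of the 20 member genes with at least 2 kept probes (45.0%), the lowest and the highest probe were over 2-fold apart in EV cells. Over the array this was so for 434 of 2150 genes (20.2%). The same 9 genes were so in miR-155 cells, beside 309 of the 2150 genes (14.4%). Genes with more probes have a greater chance of this, and the member genes have 2 to 5. In all 20 genes the probes cited 1 RefSeq record each, so the records do not separate them, and where the probes lie in the transcripts was not analysed here. The widest gap was that of EIF1AD, a nuclear protein named for its likeness to eIF1A. Its probe A_32_P749354 gave 683 and 621 in the T fraction and 1321 and 2175 in the IP fraction of EV cells, and 738 and 1004 in the T fraction and 2124 and 2506 in the IP fraction of miR-155 cells, a ratio of 2.60 in EV cells (orientations 3.18 and 2.13) and 2.68 in miR-155 cells (orientations 3.40 and 2.11). Its probe A_23_P127467 gave 465 and 357 in the T fraction and 252 and 194 in the IP fraction of EV cells, and 504 and 405 in the T fraction and 224 and 142 in the IP fraction of miR-155 cells, a ratio of 0.543 in EV cells (orientations 0.418 and 0.707) and 0.395 in miR-155 cells (orientations 0.282 and 0.553). In miR-155 cells the latter was 0.606 with normexp and quantile normalization and 0.682 with normexp, loess and Aquantile. IP was above T at the first and below T at the second in every channel pair, a gap of 2.26 and 2.76 on the log2 scale in the vectors. Gaps of 2.05 and 2.22 were found for EIF5A2 and of 1.54 and 1.09 for EIF3E. When the probes of a gene were averaged, 4 genes in EV cells and 5 in miR-155 cells had a ratio of at least 2.

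Other genes of protein synthesis gave the frame for these values. The 170 kept probes of 75 cytosolic ribosomal protein genes had median log2 IP/T ratios of -0.44 in EV cells and -0.65 in miR-155 cells. The 20 kept probes of 8 genes listed as elongation and release factors had -0.47 and -0.46. That list also holds EEF2K and EEF1E1, which are not elongation factors themselves, and ETF1 was its only release factor with a kept probe. Some initiation factor mRNAs begin with a terminal oligopyrimidine tract like those of ribosomal proteins. Only members were sorted by this tract, not the other listed genes, and whether it bears on the ratios was not tested. For the 4 member genes with such a tract in textbook accounts, EIF3E, EIF3F, EIF3H and EIF4B, the median over 11 probes was -0.56 and -0.65. All 11 were below 1 in EV cells and 9 in miR-155 cells, and 5 of the 11 are EIF4B probes. Below 1 were also 47 and 44 of the 72 members, and 9031 and 9219 of all 15529 kept probes. Over the listed eIF2 kinases, regulators, partners, elongation and release factors together, 57 probes were kept; 3 had a ratio of at least 2 in EV cells and 2 in miR-155 cells, beside 12.1% and 12.2% of all probes, and 6 and 4 a ratio of at most 0.5, beside 10.0% and 9.83%. MKNK2, a kinase that phosphorylates eIF4E, had at probe A_23_P142310 log2 ratios of 2.49 and 2.62, while its other 2 kept, dimmer probes had 0.62 and 0.98 in EV cells and 0.74 and 1.08 in miR-155 cells. MKNK1, also a kinase of eIF4E, had -1.31 in EV cells and -0.80 in miR-155 cells. ATF4, a transcription factor translated when eIF2 is phosphorylated, had -1.49 and -1.36 at probe A_23_P120941, and -0.27 and -0.44 at the brighter A_23_P120933. The elongation factor gene EEF1A1 had -1.53 and -1.32 at probe A_32_P44316 and -1.18 and -0.95 at A_32_P15320. Its other kept probes had -0.49 and -0.90 in EV cells and -0.73 and -1.02 in miR-155 cells. DDX3X, a helicase that works with eIF4F, had 1.80 in EV cells and 0.89 in miR-155 cells at probe A_23_P125656, a log2 miR-155/EV ratio of -0.90 (-0.70 and -1.10), and at its other kept probe, A_24_P126060, 1.09 and 0.60, a miR-155/EV value of -0.49 (-0.39 and -0.58).

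**Figure D5:**
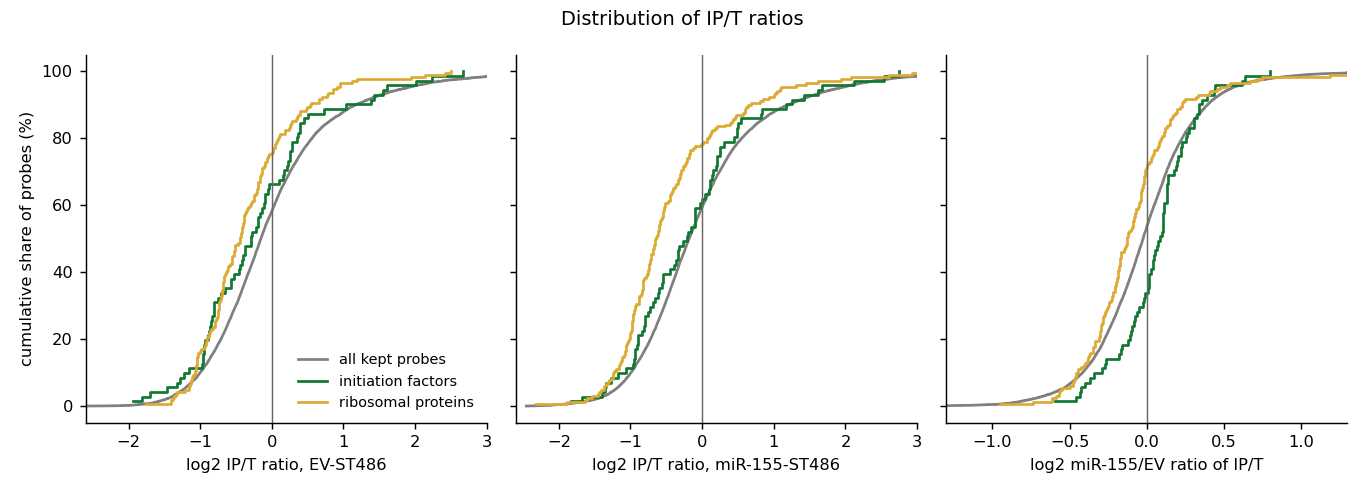
Cumulative share of probes (y axis, %) by log2 IP/T ratio in EV cells (left) and miR-155 cells (middle) and by log2 miR-155/EV ratio (right, x axes), for all kept probes (grey), initiation factors (green) and ribosomal proteins (yellow). In the right panel the green curve has its median at 0.08, the grey at -0.02 and the yellow at -0.13.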

How the data were processed

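RNA of the T and Ago2-IP fractions of ST486 cells with empty vector (EV cells) or miR-155 (miR-155 cells) was analysed on 4 two-colour Agilent arrays. The authors deposited intensity values extracted with Agilent Feature Extraction 10.5.1.1, from which, per the file headers, background had been subtracted and the dyes of an array brought together. Log2 values deposited by the authors, quantile-normalized and filtered, were used as an alternative: 71 of the 72 kept member probes are listed there, and 100% of their values were within 0.05 of those computed here. How strongly a dim IP channel reads low depends on the background subtraction, so ratios of dim probes are the least certain.

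From the intensities, spots of a probe were averaged, values under 1 set to 1, log2 values quantile-normalized over the 8 channels, and probes kept on detection in 4 or more channels and on labellings at most 2-fold apart. IP/T and miR-155/EV ratios are means of the log2 ratios of the 2 dye orientations, and no test was made, with 1 sample per condition. Symbols came from RefSeq records (GRCh38.p14 table); the files' own coordinates are of another build, and none are printed. Values in every channel are given for members past a ratio of 2 or 0.5, or past 1.5-fold between vectors, in both orientations, for the 3 highest and 3 lowest probes, and for the kept probes of 15 core factors (EIF4G2, with none kept, included); genes just outside this rule that are given so were chosen after their values were seen. Members and lists were chosen with earlier results of these data known. Calculations used Python 3.11.15, pandas 2.3.3, R 4.3.3 and limma 3.58.1, and were tested on simulated data. Alternatives were normexp background (offset 50) with quantile or with loess and Aquantile normalization, no quantile normalization, and the deposited log2 values. Further alternatives were other filters, single orientations, outlier spots left out, and gene means. The normexp alternatives started from median spot and local background intensities, not from the processed intensities.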

Additional observations from a re-analysis of the deposited data

Results flagged for a closer look

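In 5 of 71 member probes (7.04%), and in 502 of all 15529 kept probes (3.23%), the IP/T ratio lay above 1 in both orientations with one vector and below 1 in both with the other; the difference was not tested, since each condition is 1 sample. The log2 miR-155/EV ratio was 0.62 for EIF3K probe A_23_P90264, 0.44 for EIF4A1 probe A_24_P390793, 0.36 for EIF3E probe A_24_P206427 and 0.22 for EIF4A3 probe A_23_P141636, which were above 1 in miR-155 cells. It was -0.59 for EIF5 probe A_24_P398810, which was above 1 in EV cells. Slide and vector cannot be told apart here.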

How the results depend on the processing

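Each IP/T ratio pairs the IP and T channels of 1 array. No paired test was possible, because the labellings are technical repeats of 1 RNA per condition. Over 11 alternatives, 84 of 110 counts and medians stayed within 1.5-fold or within the spread of the orientations, and 26 did not; no median changed its sign. The cause was not tested. With normexp, loess and Aquantile, 0 members in EV and 1 in miR-155 were at or under 0.5 (8 each as reported); the medians were -0.14 in EV, -0.070 in miR-155, 0.14 for miR-155/EV and 0.092 for T. With normexp and quantile normalization 1 member in miR-155 was at or under 0.5, with medians of -0.13 in miR-155 and 0.088 for T. Without quantile normalization the medians were -0.19, -0.12 and, for T, 0.60, while that of all probes went from 0.02 to 0.44, so T differences are to be read against all probes. Averaging probes by gene gave 4 and 5 genes at or above 2 and 4 and 4 at or under 0.5. Without the filter on labellings, 1 member reached a miR-155/EV ratio of 2 and 1 was at or under 0.5, and the miR-155 median was -0.15; detection in all 8 channels gave -0.17 and no detection filter -0.15. Single orientations gave 8 to 16 members at or under 0.5 in EV, and medians of -0.21 to -0.19 in miR-155, 0.039 to 0.057 for miR-155/EV and 0.13 to 0.16 for T. Of 32 called IP/T values, 18 passed under every alternative that kept the probe. The number of arrays, and dim signals near background, limit the precision.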
